A study of Rattus norvegicus with 9 samples.

Results

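Lungs of mechanically ventilated rats were compared between ventilation with pure oxygen and ventilation with room air. The comparison used every sample titled as ventilated, 5 arrays that stand for 4 samples of the 8 in the series (9 arrays), and all 8740 probe sets that are not controls. Rats in the rest of the series breathed spontaneously with either oxygen level. All RNA was total RNA of rat lung, measured on 1-colour oligonucleotide arrays. The pure-oxygen group received 100% oxygen and its samples carry the letters a and b. Letter b was measured on 2 arrays, which were averaged and counted once. The room-air group received 21% oxygen and also holds letters a and b. Mechanical ventilation is therefore shared by both groups, and oxygen is the labelled difference. The sources used here give no strain, age, length of ventilation or ventilator settings. Whether letters a and b stand for different rats is not stated, and every p-value therefore rests on a spread between samples that may be technical. With 2 samples against 2, an exact two-sided permutation test of a single value cannot go below p = 0.333, so tests come from limma's moderated model across all probe sets.

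A high oxygen level raises the output of superoxide and hydrogen peroxide in lung mitochondria, and the airspace lining meets it first. Cells answer oxidants and unfolded protein with heme oxygenase, thiol reductases and heat shock proteins, and they answer stretch and injury with immediate early genes, transcription factors whose mRNA rises within minutes. A ventilator adds cyclic stretch of the alveolar wall, a stimulus to the same early genes and to matrix and growth factor genes.

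Levels are the deposited intensities, arbitrary units scaled to a 2% trimmed mean between 800.5 and 801.1 on every array, and they cannot be compared between probe sets. Changes are pure oxygen minus room air on the scale log2(intensity + 40), which understates those of dim genes, and are given with their standard error. A gene was called when its Benjamini-Hochberg adjusted p lay under 0.05. The 99th percentile of intensity was 7111 to 8352 on the pure-oxygen arrays and 9934 to 14547 on the other 6. In the 525 brightest tested probe sets the median change was -0.42, and it became -0.02 after quantile normalization. Across all tested probe sets the median change was 0.137, and quantile normalization moved it to 0.008. Median differences between letters a and b were 0.162 for room air and 0.192 for pure oxygen on the log2 scale, against 0.44 between the group means. An empty line for a lot batch stands in the description of both spontaneous 21% arrays and of 2 of the 3 pure-oxygen arrays, and in none of the room-air arrays. The fit to arrays without the line thus holds 1 pure-oxygen array, s2A of letter b. Calls lost in it cannot be ascribed to the line rather than to the single array. With the line as a block, both arrays of letter b entered separately, and only the pure-oxygen arrays could show the size of its effect. Where a gene has several probe sets the brightest is given. The others disagreed for some genes. Of 4 tested probe sets 3 were called for Egr1, Jun, Atp2a2, Hsp90ab1 and Hspb1. Of 3, 2 were called for Hspa5 and Cyp2e1 and 1 for Dnaja2. Of 2, 1 was called for Nr4a3, Thbd, Lamb2, Mmp2, Hyou1, Hsf1 and Gzmb. The labelled tissue showed its markers, with Sftpb, the surfactant protein B gene, between 4591 and 23281 in the 8 samples.

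In all, 1841 of 5244 tested probe sets were called (35.1%), 1085 higher (20.7%) and 756 lower (14.4%) with pure oxygen. Of the 3181 genes these probe sets stand for, 633 (19.9%) were higher and 435 (13.7%) lower, and the median change over genes was 0.12. These are the shares against which the counts of the lists below are read. The split depended on scaling, with 816 higher and 864 lower probe sets after quantile normalization and 773 and 825 after cyclic loess. The called rises had a median of 0.93 and the called falls a median of -0.78. Changes over 4-fold were found in 53 probe sets that rose and 55 that fell. In the 2 ventilated groups the values did not overlap for 71.1% of tested probe sets, nor for any of the called genes named here. Using only the arrays without the lot line left 560 higher and 373 lower, and 839 of the 1841 calls (45.6%) were kept with the same sign. Of the 126 called genes named here, 105 kept their call in that fit. Leaving out pure-oxygen letter a gave 591 and 385 calls, leaving out room-air letter a gave 720 and 419, and leaving out room-air letter b gave 636 and 320. Among the 633 higher genes, both pure-oxygen samples lay above all 6 other samples in 388, and both room-air samples lay below all 6 others in 310. Among the 435 lower genes, both room-air samples lay above all others in 236 and both pure-oxygen samples below all others in 231. Counts of this kind in the lists below are read against these.

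**Figure D1:**
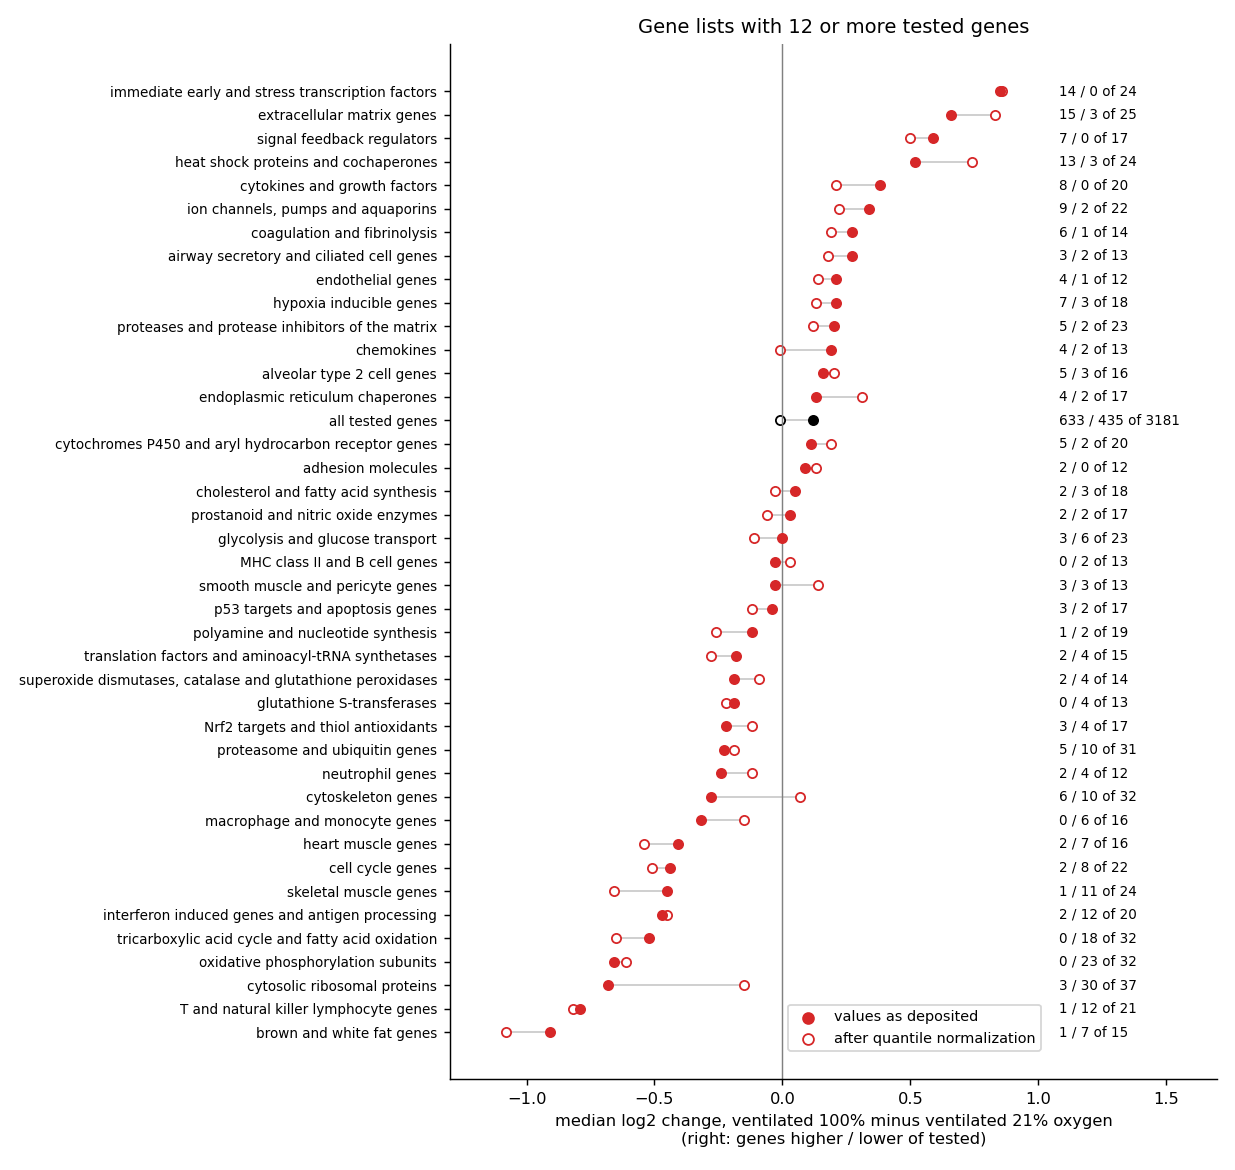
Median log2 change (horizontal axis, pure oxygen minus room air under ventilation) of each gene list with 12 or more tested genes, as deposited (filled) and after quantile normalization (open), with the counts of genes higher, lower and tested at the right. Immediate early factors have the highest median (0.85) and fat genes the lowest (-0.91), and the ribosomal proteins move from -0.68 to -0.15 with quantile normalization. With dim probe sets tested too, the immediate early and fat medians were 0.48 and -0.44.

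Immediate early transcription factors rose as a group. Of 24 tested members 14 rose and 0 fell, against 19.9% and 13.7% of all genes, and their median change was 0.85 against 0.12. With dim probe sets tested too, 14 of 31 members rose and 0 fell, and the median was 0.48 against 0.05 over all genes. The RNA came from whole tissue, so more or fewer cells of a type and more or less RNA per cell cannot be told apart, here and below. Nr4a1, an orphan nuclear receptor of the early response, read 559 and 648 in room-air letters a and b and 6505 and 5635 in the pure-oxygen pair, 9.49-fold (log2 change 3.25 ± 0.24, adjusted p = 1.1e-04). Its relative Nr4a3 went from 77.3 and 95.6 to 1603 and 895 (log2 change 3.30 ± 0.33, adjusted p = 4.6e-04). In 12 of the 14 genes that rose, both pure-oxygen samples were higher than any other sample of the series. Egr1, a zinc finger factor induced by stretch and oxidants, read 1579.5 and 1761 with room air and 6424 and 5833 with pure oxygen (log2 change 1.85 ± 0.13, adjusted p = 8.0e-05). Both AP-1 partners rose, Fos from 1064 and 1189 to 3479 and 3334 (log2 change 1.56 ± 0.12, adjusted p = 1.5e-04) and Jun from 1660.2 and 1753 to 6020.3 and 4392 (log2 change 1.57 ± 0.16, adjusted p = 4.2e-04). Atf3, a stress-induced repressor of the same bZIP family, rose from 843 and 728 to 3725 and 2907 (log2 change 2.02 ± 0.16, adjusted p = 1.6e-04). Each of these genes kept its call and direction under every alternative in which it was tested.

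Signalling regulators, inhibitors of early signals among them, rose beside the early genes. In the list of signal feedback regulators 7 of 17 tested genes rose and 0 fell, with a median of 0.59. Zfp36, tristetraprolin, which destabilises mRNAs of cytokines and early genes, read 1148 and 1066 with room air and 4427 and 4399 with pure oxygen (log2 change 1.96 ± 0.13, adjusted p = 7.6e-05). Its relative Zfp36l1 rose by 0.99 ± 0.14 (adjusted p = 0.0019). The MAP kinase phosphatase Dusp5 read 264 and 282 and then 604 and 587 (log2 change 1.02 ± 0.19, adjusted p = 0.0057). Errfi1, an inhibitor of the EGF receptor, rose by 1.02, the G protein signalling regulator Rgs1 by 1.59 and the kinase Pim3 by 1.43. None of these 6 lost its call under an alternative in which it was tested.

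**Figure D2:**
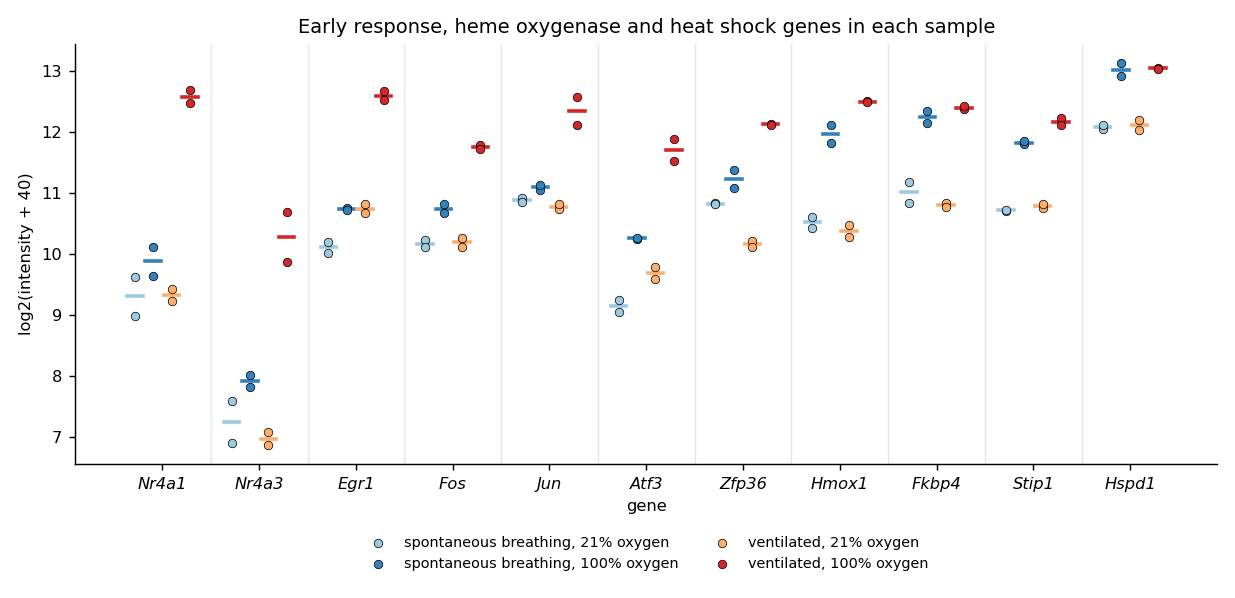
Levels of early response, heme oxygenase and heat shock genes on the log2(intensity + 40) scale, 1 point per sample and a bar at the mean of each group's 2 samples. The ventilated pure-oxygen points of Nr4a1, Nr4a3, Egr1, Fos, Jun, Atf3, Zfp36 and Hmox1 lie above all others, while Fkbp4, Stip1 and Hspd1 are high with 100% oxygen under both ways of breathing.

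To show the upstream sequence of early genes that rose together, the RefSeq windows of Egr1 and Zfp36 are given, 250 bases before to 50 after the start (build GRCr8). They were picked because they hold the serum response element, the CArG box bound by serum response factor, and capitals mark each match. Egr1 lies at chr18:26736828-26737127 on the plus strand with matches at -105 to -96 and -83 to -74, and Zfp36 at chr1:92799059-92799358 on the minus strand with a match at -32 to -23.
Egr1: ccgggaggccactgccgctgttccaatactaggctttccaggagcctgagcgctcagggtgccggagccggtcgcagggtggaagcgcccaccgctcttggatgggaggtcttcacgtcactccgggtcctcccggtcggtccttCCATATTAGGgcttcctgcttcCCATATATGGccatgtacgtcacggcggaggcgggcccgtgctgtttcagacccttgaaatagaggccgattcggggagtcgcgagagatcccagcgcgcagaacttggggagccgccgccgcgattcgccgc
Zfp36: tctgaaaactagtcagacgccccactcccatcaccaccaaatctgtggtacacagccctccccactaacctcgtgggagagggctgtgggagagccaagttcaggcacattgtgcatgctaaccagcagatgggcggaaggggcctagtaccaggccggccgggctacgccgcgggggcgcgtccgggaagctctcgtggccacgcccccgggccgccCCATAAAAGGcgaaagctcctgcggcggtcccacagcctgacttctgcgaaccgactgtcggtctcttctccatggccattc
The CArG box was searched on both strands in 27457 promoter windows and stood in 1.64% of them. Of the 9 immediate early genes that rose and had a window it stood in 2, Egr1 and Klf6 (Klf6, picked with its values known, changed by 1.57). It stood in 2.34% of 513 windows of genes that rose and in 1.94% of 360 windows of genes that fell. The cyclic AMP response element TGACGTCA stood in 0 of the same 9, in 1.95% of the rising genes and in 2.22% of the falling genes. A match describes these letters only.

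Cytokine and growth factor genes rose in part. Of 20 tested members 8 rose and 0 fell, with a median of 0.38, which was 0.72 without pure-oxygen letter a and 0.21 after quantile normalization. Hbegf, a ligand of the EGF receptor shed from stretched epithelium, read 176 and 98.0 with room air and 555 and 463 with pure oxygen (log2 change 1.66 ± 0.30, adjusted p = 0.0046). The alarm cytokine Il1a rose from 1067 and 945 to 2412 and 2044 (log2 change 1.11 ± 0.14, adjusted p = 0.0011). Vegfa, the growth factor of endothelium, went from 1444 and 1453 to 3413 and 2748 (log2 change 1.06 ± 0.15, adjusted p = 0.0017). Of the TGF-beta family, Tgfb1 rose by 1.34 ± 0.24 and Bmp4 by 1.04 ± 0.16 (adjusted p = 0.0052 and 0.0030). Il6, the interleukin-6 gene, read 377 and 384 with room air and 432 and 425 with pure oxygen and was not called (adjusted p = 0.57).

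Chemokines did not move one way, with 4 of 13 tested genes higher (30.8%) and 2 lower (15.4%), against 19.9% and 13.7% of all genes. Ccl3, which recruits macrophages, read 107 and 14.2 with room air and 408 and 422 with pure oxygen (log2 change 2.35 ± 0.44, adjusted p = 0.0057), and the room-air values are near the dim end of the array. Probe sets with a mean under 112 were not tested. Ccl3 passed this limit only through its pure-oxygen values, so its call is not counted as support. Cx3cl1, the membrane-bound chemokine of endothelium and epithelium, rose from 344 and 349.6 to 731 and 768 (log2 change 1.03 ± 0.15, adjusted p = 0.0023). Ccl5, a T cell attractant, fell from 1919 and 2116 to 857 and 1159.7 (log2 change -0.99 ± 0.15, adjusted p = 0.0028). Ccl2, the monocyte attractant, read 1449 and 1401 with room air and 1513 and 1275 with pure oxygen, overlapping ranges with a change of -0.04 ± 0.16. Cxcl2 was too dim to be tested, at 35.3 and 66.1 with room air and 99.1 and 59.2 with pure oxygen. The count of rising chemokines was 1 without pure-oxygen letter a and 2 without either room-air sample, and 2 after quantile normalization.

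Neutrophil and macrophage genes were not higher as lists. Of 12 tested neutrophil genes 2 rose and 4 fell, and of 16 macrophage genes 0 rose and 6 fell. Adhesion molecules, Icam1 among them, were no more often higher than all genes. Of 12 tested 2 rose (16.7%, against 19.9%) and 0 fell, with a median of 0.09. RatNP-3b, a neutrophil defensin, fell from 1117 and 1297 to 295 and 263 (log2 change -1.96 ± 0.30, adjusted p = 0.0025), and lay between 8.83 and 83.1 in the spontaneously breathing samples. It passed the limit for testing only through its room-air values, so its call is not counted as support. The calgranulin S100a8 went from 10468 and 10013 to 6399 and 6542 (log2 change -0.66 ± 0.10, adjusted p = 0.0026), and after quantile normalization its change was -0.14 and was not called. Lyz2, the lysozyme of macrophages, fell from 7892 and 8811 to 3686 and 3815 (log2 change -1.16 ± 0.21, adjusted p = 0.0047), a call lost with the lot line as a block. Icam1, the endothelial ligand of leukocyte integrins, rose from 3241 and 3266 to 5349.9 and 4804 (log2 change 0.63 ± 0.11, adjusted p = 0.0041), a call lost in the arrays without the lot line. Without pure-oxygen letter a or either room-air sample, 3 macrophage genes were lower in place of 6, as after quantile normalization. Without room-air letter b, 2 neutrophil genes were lower.

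Cytosolic chaperones and cochaperones rose together. In the heat shock list 13 of 24 tested genes rose and 3 fell, with a median of 0.52, which became 0.74 after quantile normalization. Fkbp4, an immunophilin of the Hsp90 complex, read 1773 and 1693 with room air and 5250 and 5435 with pure oxygen, 3.04-fold (log2 change 1.60 ± 0.14, adjusted p = 2.6e-04). Stip1, which links Hsp70 to Hsp90, rose from 1682 and 1764 to 4715 and 4368 (log2 change 1.38 ± 0.11, adjusted p = 1.4e-04). St13, another Hsp70 cochaperone, went from 1964 and 1739 to 4314 and 4029 (log2 change 1.16 ± 0.11, adjusted p = 4.1e-04). Among J-domain proteins, Dnaja4 rose by 1.82 ± 0.17 and Dnajb1 by 0.86 ± 0.12 (adjusted p = 3.0e-04 and 0.0018). The mitochondrial chaperonin Hspd1 rose from 4630.3 and 4131 to 8398 and 8303 (log2 change 0.93 ± 0.12, adjusted p = 0.0014).

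The inducible Hsp70 gene Hspa1a rose less, from 3965 and 3966 to 5617 and 6154 (log2 change 0.56 ± 0.16, adjusted p = 0.030), and lost its call when any of the 4 ventilated samples was left out. Hsf1, the heat shock transcription factor, rose from 552 and 261 to 863 and 1312 (log2 change 1.36 ± 0.31, adjusted p = 0.011), a call lost without pure-oxygen letter b or room-air letter b. The 3 members that fell were Hsp90ab1 (-1.24), the small heat shock protein Hspb1 (-1.17) and Dnaja2 (-0.58). Hsp90ab1 and Hspb1 are among the brightest genes of the array, and their changes were -0.69 and -0.67 after quantile normalization. Neither was called on the arrays without the lot line. Dnaja2 lost its call without pure-oxygen letter a or either room-air sample. Hsf1 and these 3 were singled out after their values were seen. Among chaperones of the endoplasmic reticulum, 4 of 17 rose (23.5%) and 2 fell (11.8%), near the 19.9% and 13.7% of all genes. Pdia4, a disulfide isomerase, rose from 1443 and 1262 to 3910.1 and 3479 (log2 change 1.42 ± 0.13, adjusted p = 2.4e-04). Hyou1 rose by 0.63 and lost its call without pure-oxygen letter b or either room-air sample. The Hsp70 of this compartment, Hspa5, read 6246 and 6119 with room air and 8105 and 7623 with pure oxygen (log2 change 0.34 ± 0.11, adjusted p = 0.044), and its call was lost when any ventilated sample was left out. Without pure-oxygen letter b or either room-air sample this list had 1 rising gene, without pure-oxygen letter a 2, and after quantile normalization 7.

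The windows of heat shock list genes that rose are shown because a short motif stood in most of them. The heat shock element is built of inverted nGAAn units, and both phases were searched, GAANNTTC and TTCNNGAA, each its own reverse complement. Either phase stood in 15.4% of all 27457 windows, in 11.1% of 2614 windows of tested genes and in 11.3% of windows of genes that rose. Of the 13 chaperone genes that rose, 10 had a window, and 7 of these held the motif. They were Hspa9, Hsph1, Hspd1, Dnajb1, Stip1, Fkbp4 and Chordc1, named for the match. Capitals mark the matches in 5 of them, from RefSeq on GRCr8, at chr19:41431092-41431391 (Dnajb1, minus strand), chr9:64083988-64084287 (Hspd1, minus), chr1:213657605-213657904 (Stip1, minus), chr4:163397869-163398168 (Fkbp4, minus) and chr8:23650571-23650870 (Chordc1, plus).
Dnajb1: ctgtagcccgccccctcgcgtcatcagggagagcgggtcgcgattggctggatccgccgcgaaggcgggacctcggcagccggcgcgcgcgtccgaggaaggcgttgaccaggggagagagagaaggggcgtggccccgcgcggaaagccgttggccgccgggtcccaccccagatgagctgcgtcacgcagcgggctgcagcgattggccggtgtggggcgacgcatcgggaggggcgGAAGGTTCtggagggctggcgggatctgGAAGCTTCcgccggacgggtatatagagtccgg
Hspd1: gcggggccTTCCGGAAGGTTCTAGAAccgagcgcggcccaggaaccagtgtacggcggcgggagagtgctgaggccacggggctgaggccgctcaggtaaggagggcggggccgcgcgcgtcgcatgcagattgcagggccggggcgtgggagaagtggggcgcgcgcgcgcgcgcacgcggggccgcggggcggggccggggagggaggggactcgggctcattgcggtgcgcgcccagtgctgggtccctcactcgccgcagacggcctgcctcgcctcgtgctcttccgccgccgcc
Stip1: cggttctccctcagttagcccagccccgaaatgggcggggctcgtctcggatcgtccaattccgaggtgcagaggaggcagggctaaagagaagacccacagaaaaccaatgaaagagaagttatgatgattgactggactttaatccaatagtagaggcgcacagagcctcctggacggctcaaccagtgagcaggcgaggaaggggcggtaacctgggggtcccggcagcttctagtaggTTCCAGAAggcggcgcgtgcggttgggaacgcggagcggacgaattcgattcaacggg
Fkbp4: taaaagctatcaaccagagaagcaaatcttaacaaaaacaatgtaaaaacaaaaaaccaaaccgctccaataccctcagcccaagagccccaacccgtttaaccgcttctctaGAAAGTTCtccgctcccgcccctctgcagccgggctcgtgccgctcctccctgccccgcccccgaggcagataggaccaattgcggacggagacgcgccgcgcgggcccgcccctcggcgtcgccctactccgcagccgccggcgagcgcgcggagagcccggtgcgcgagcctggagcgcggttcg
Chordc1: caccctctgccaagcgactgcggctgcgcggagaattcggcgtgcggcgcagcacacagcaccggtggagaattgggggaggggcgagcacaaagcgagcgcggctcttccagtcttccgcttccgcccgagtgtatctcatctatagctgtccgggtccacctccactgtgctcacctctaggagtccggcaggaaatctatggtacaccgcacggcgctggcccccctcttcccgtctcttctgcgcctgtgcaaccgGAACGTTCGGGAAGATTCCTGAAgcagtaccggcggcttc
In Hspd1 the matches overlap into 1 run from -242 to -225, and in Chordc1 into 1 run from 11 to 33 after the start. Dnajb1 holds a match at -11 to -4 and another at 18 to 25, Stip1 at -8 to -1 and Fkbp4 at -137 to -130. Chordc1, an Hsp90 cochaperone singled out for its window, read 2018 and 2418 with room air and 4189.9 and 3983 with pure oxygen (log2 change 0.88 ± 0.15, adjusted p = 0.0036). No comparison of these shares was tested.

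Antioxidant genes split, with 1 large rise. Hmox1, heme oxygenase, read 1382 and 1199 with room air and 5755 and 5691 with pure oxygen, 4.34-fold (log2 change 2.12 ± 0.14, adjusted p = 8.0e-05). Txnrd1, thioredoxin reductase, went from 2886 and 1881 to 4635 and 3967 (log2 change 0.86 ± 0.20, adjusted p = 0.012), a call lost without pure-oxygen letter a or room-air letter b and on the arrays without the lot line. Nqo1, the quinone reductase that shares their regulator Nrf2, read 2490.5 and 2368 with room air and 2259 and 2646 with pure oxygen, overlapping ranges with a change of 0.01 ± 0.13. Of 17 tested Nrf2 targets and thiol antioxidants 3 rose and 4 fell, and 1 rose without pure-oxygen letter a or room-air letter b. With all samples the shares of this list were 17.6% higher and 23.5% lower, against 19.9% and 13.7% of all genes. Prdx2, a peroxiredoxin, fell from 7091 and 7219.6 to 4016 and 4409 (log2 change -0.76 ± 0.13, adjusted p = 0.0045). The mitochondrial superoxide dismutase Sod2 fell from 2012 and 1970.1 to 1471 and 1349.9 (log2 change -0.49 ± 0.12, adjusted p = 0.016), and the extracellular Sod3 rose from 1948 and 1961 to 2837 and 3039 (log2 change 0.58 ± 0.11, adjusted p = 0.0070). Sod2 lost its call without pure-oxygen letter b or either room-air sample. Of 13 tested glutathione S-transferases 0 rose and 4 fell, Gsto1 among them (log2 change -0.95 ± 0.17, adjusted p = 0.0043). That count was 1 without pure-oxygen letter a and 2 without any other single ventilated sample. The count of falling Nrf2 targets was between 1 and 3 with a sample left out.

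Single cytochrome P450 genes changed. Cyp1a1, the aryl hydrocarbon receptor target, fell from 1215 and 1083 to 441 and 319 (log2 change -1.51 ± 0.20, adjusted p = 0.0016). Cyp2e1 fell from 2778 and 2708 to 1455 and 1638 (log2 change -0.81 ± 0.12, adjusted p = 0.0019), while Cyp2f4, an enzyme of club cells, rose from 1268 and 1322 to 2191 and 2097 (log2 change 0.71 ± 0.11, adjusted p = 0.0027). Of 20 tested genes of this list 5 rose and 2 fell, shares near the 19.9% and 13.7% of all genes, and 3 rose without pure-oxygen letter a or room-air letter b.

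Genes of coagulation and of endothelium were higher in several cases. Thbd, thrombomodulin, which turns thrombin into an anticoagulant on endothelium, read 384 and 432 with room air and 2171 and 1803 with pure oxygen (log2 change 2.17 ± 0.24, adjusted p = 7.2e-04). Tissue factor F3, the trigger of clotting, rose from 2084 and 2020 to 3444 and 3215 (log2 change 0.69 ± 0.11, adjusted p = 0.0029). Plat, the tissue plasminogen activator, rose from 3082 and 3090 to 5743 and 5096 (log2 change 0.80 ± 0.13, adjusted p = 0.0030). In the coagulation list 6 of 14 tested genes rose and 1 fell, and without pure-oxygen letter a or either room-air sample 3 rose. Ace, the angiotensin-converting enzyme of the lung capillary, went from 2356 and 2413 to 4795 and 4754 (log2 change 0.99 ± 0.11, adjusted p = 8.6e-04). The endothelial receptor Acvrl1 rose from 2349 and 1773 to 3747 and 3965 (log2 change 0.90 ± 0.16, adjusted p = 0.0046). Of 12 tested endothelial genes 4 rose and 1 fell. Ptgir, the prostacyclin receptor, fell from 929 and 1123 to 202 and 277 (log2 change -1.94 ± 0.24, adjusted p = 0.0011).

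Extracellular matrix genes rose as a broad group, 15 of 25 tested against 3 that fell, with a median of 0.66 and of 0.83 after quantile normalization. Fn1, fibronectin, read 2531 and 2486 with room air and 8113 and 7254 with pure oxygen, 3.03-fold (log2 change 1.60 ± 0.12, adjusted p = 1.2e-04). The laminin chains rose, Lamb2 from 671 and 618 to 2758 and 2551 (log2 change 1.98 ± 0.14, adjusted p = 8.6e-05) and Lamc1 from 982 and 1018 to 3028 and 2506 (log2 change 1.42 ± 0.14, adjusted p = 4.5e-04). In 11 of the 15 rising genes both room-air samples were lower than any other sample, and in 9 both pure-oxygen samples were higher than any other. Over all 633 higher genes these counts were 310 and 388. Fibrillar collagen genes followed, with Col1a2 at 2911 and 3125 and then 6463 and 6541 (log2 change 1.10 ± 0.11, adjusted p = 3.7e-04) and Col5a2 higher by 1.22 ± 0.12. Enzymes that mature collagen rose too, the cross-linking oxidase Lox from 2553 and 2361 to 5479.7 and 5340 (log2 change 1.13 ± 0.11, adjusted p = 3.3e-04) and the prolyl hydroxylase P4ha1 from 6017 and 5937 to 9723 and 9237 (log2 change 0.66 ± 0.10, adjusted p = 0.0026). Mmp2, gelatinase A, rose by 1.17 ± 0.14, and the lysyl hydroxylase Plod1, singled out after its values were seen, by 1.90 ± 0.19. The count of falling matrix genes was 0 without pure-oxygen letter a and 1 without room-air letter b.

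Other named genes came from among the largest rises of the array. Sptan1, alpha spectrin, read 414 and 381 with room air and 2492 and 1997 with pure oxygen (log2 change 2.38 ± 0.17, adjusted p = 1.0e-04). The guanine exchange factor Iqsec1 went from 233 and 158 to 1381 and 1634 (log2 change 2.73 ± 0.20, adjusted p = 1.0e-04), and the autophagy scaffold Wdfy3 from 226 and 176 to 1309 and 1302 (log2 change 2.49 ± 0.17, adjusted p = 8.0e-05). Aebp1, a secreted matrix-binding protein, rose by 2.35 ± 0.34, with all 3 of its probe sets called, and the guidance ligand Slit3 by 2.23 ± 0.24. Myh11, smooth muscle myosin, rose from 458 and 581 to 2095 and 2125 (log2 change 1.95 ± 0.25, adjusted p = 0.0014). Of 5 smooth muscle markers, Myh11 included, 1 rose and 2 fell, and they summed to 14930 and 14816 with room air and to 14280.3 and 14481 with pure oxygen. In the list of smooth muscle and pericyte genes 3 of 13 rose and 3 fell, with a median of -0.03, and 0 fell without pure-oxygen letter a or either room-air sample. The zinc finger factor Plagl1 rose from 149 and 209 to 1076 and 839.6 (log2 change 2.19 ± 0.21, adjusted p = 4.0e-04).

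Alveolar epithelial genes did not move together. Of 16 tested type 2 cell genes 5 rose and 3 fell, and 3 rose when either one of the pure-oxygen samples was left out. The lineage factors Nkx2-1 (1608 and 1475 with room air, 3271 and 3675 with pure oxygen, log2 change 1.15 ± 0.14, adjusted p = 0.0010) and Foxa2 (log2 change 0.91 ± 0.16, adjusted p = 0.0042) rose. The surfactant genes Sftpb and Sftpc fell, Sftpb from 15104 and 16391 to 4591 and 6926 (log2 change -1.49 ± 0.25, adjusted p = 0.0036) and Sftpc from 7784 and 9252 to 3543 and 4261 (log2 change -1.13 ± 0.24, adjusted p = 0.0097). The surfactant protein genes Sftpa1 and Sftpd were tested and not called. Sftpc lost its call without pure-oxygen letter a or room-air letter b. Ager, a marker of type 1 cells, fell from 9983 and 10954 to 4999 and 6094 (log2 change -0.92 ± 0.15, adjusted p = 0.0037). Type 1 cell genes did not fall as a list, with 1 of 6 tested higher, 1 lower and a median of 0.05. The club cell gene Scgb1a1 read 8894 and 8294 with room air and 6831 and 6763 with pure oxygen, a change of -0.34 that turned to 0.18 after quantile normalization and lost its call without any 1 ventilated sample. Sftpb, Sftpc, Ager and Scgb1a1 belong to the 525 brightest probe sets, of which 51.6% were lower. After quantile normalization Sftpb, Sftpc and Ager changed by -1.14, -1.04 and -0.65, and on the arrays without the lot line none of the 3 was called. Scnn1a, a subunit of the sodium channel that clears alveolar fluid, rose from 1712 and 1703 to 3829 and 4106 (log2 change 1.20 ± 0.12, adjusted p = 4.0e-04), and the calcium pump Atp2a2 from 1439.8 and 1391 to 3789.5 and 3389.9 (log2 change 1.32 ± 0.13, adjusted p = 3.7e-04). In the list of channels, pumps and aquaporins 9 of 22 rose and 2 fell, with 6 rising without pure-oxygen letter a or room-air letter b.

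**Figure D3:**
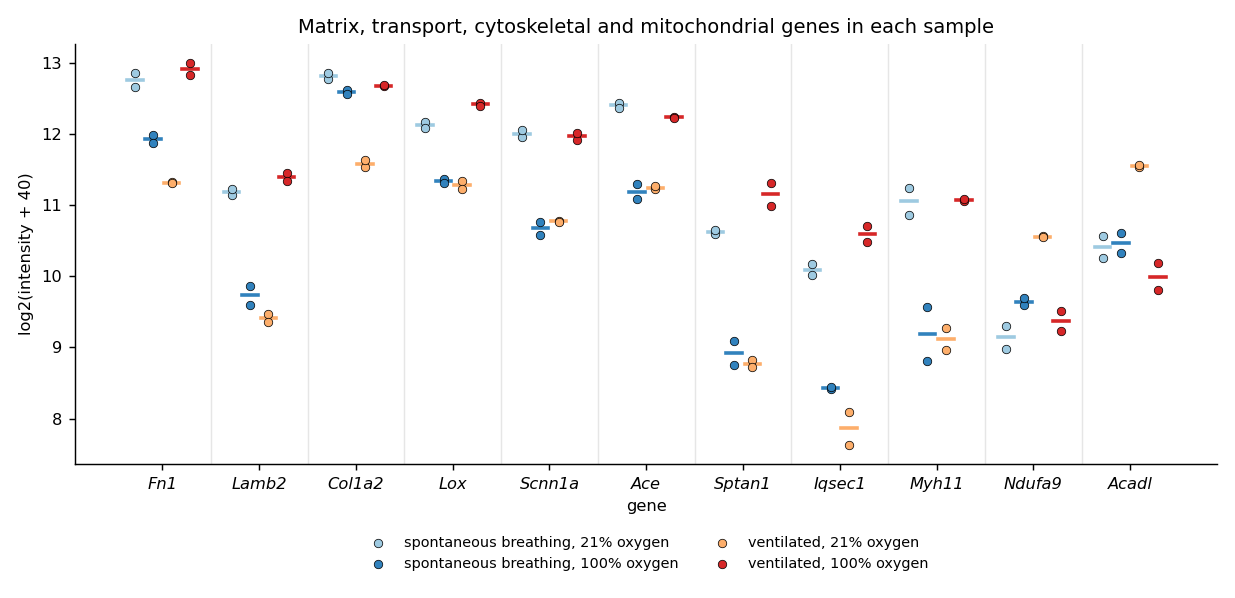
Levels of matrix, transport, cytoskeletal and mitochondrial genes on the log2(intensity + 40) scale, 1 point per sample and a bar at the mean of each group's 2 samples. Fn1, Lamb2, Sptan1, Iqsec1 and Myh11 are low in the ventilated room-air samples and high in the ventilated pure-oxygen and spontaneous 21% samples, and Ndufa9 and Acadl are highest in the ventilated room-air samples.

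T lymphocyte genes had some of the largest falls. Thy1, in the rat a surface antigen of thymocytes and not of T cells at large, read 7727 and 9575 with room air and 173 and 138 with pure oxygen (log2 change -5.47 ± 0.22, adjusted p = 5.0e-06). The T cell receptor subunits fell, Cd3g from 4467 and 4691 to 271 and 263 (log2 change -3.91 ± 0.16, adjusted p = 5.0e-06), Cd3d from 4606 and 4432 to 164 and 93.7 (log2 change -4.90 ± 0.42, adjusted p = 2.0e-04) and Cd247 from 1832 and 1818 to 139.9 and 141 (log2 change -3.37 ± 0.22, adjusted p = 7.6e-05). These levels set the room-air samples apart from all 6 other samples, not only from pure oxygen. The kinase Lck, which starts receptor signalling, went from 8396 and 8426 to 788 and 832 (log2 change -3.32 ± 0.23, adjusted p = 9.6e-05). Cd8a, the co-receptor of killer cells, read 2718 and 2941 with room air and -70.3 and 76.0 with pure oxygen (adjusted p = 0.0052), a call lost without the filter on dim probe sets. The adaptor Lat read 2065 and 2689.9 with room air and 98.9 and 108 with pure oxygen (adjusted p = 0.010) and lost its call without pure-oxygen letter a or room-air letter b. Lat, like Cd8a, passed the limit for testing only through its room-air values, so neither call is counted as support. Cd5, another T cell receptor regulator, fell by 2.27 on the log2 scale.

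Of 21 tested T and natural killer cell genes 12 fell and 1 rose, with a median of -0.79. The median was -1.43 without pure-oxygen letter a and -1.22 without letter b. Without the filter on dim probe sets 11 of 29 fell, with a median of -0.49. In 10 of the 12 both room-air samples were above all other samples of the series. The riser was granzyme Gzmb (log2 change 0.98 ± 0.17, adjusted p = 0.0042), singled out after its values were seen. Over the 9 of 10 T cell markers on the array, the summed intensity was 24399.5 and 26286 with room air, 1518 and 1346 with pure oxygen, 1992 and 2120.2 in spontaneous 21% and 1819 and 1319.6 in spontaneous 100%. Bright probe sets weigh most in such a sum, and the thymocyte antigen Thy1 made up 7727 and 9575 of the room-air values. Cd8a is among the summed markers. It passed the filter on dim probe sets only through its room-air values, so the markers' calls are not counted as support. Cd4 was tested and did not pass (242 and 267 with room air, 168 and 144 with pure oxygen). The leukocyte antigen Ptprc, carried by all white cells, read 939 and 1019 with room air and 941 and 754 with pure oxygen (log2 change -0.21 ± 0.16, adjusted p = 0.36). The recombinase Rag1, a gene of immature lymphocytes, was dim in every sample, at most 43.6 (room-air letter a). Cd4 and Ptprc were singled out after their values were seen. Which tissue pieces were taken is not given in the sources used here, and whether the samples held other tissue was not tested.

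Fat genes formed a second block of falls. Ucp1, the uncoupling protein of brown fat, read 6179 and 6247 with room air and 37.8 and 31.1 with pure oxygen (log2 change -6.39 ± 0.15, adjusted p = 1.6e-07). Fabp4, the lipid carrier of adipocytes, went from 3387 and 3457 to 33.3 and 77.5 (log2 change -5.26 ± 0.22, adjusted p = 5.0e-06). Cidea, a lipid droplet protein of brown fat, went from 1945 and 2029 to 67.7 and 157 (log2 change -3.80 ± 0.28, adjusted p = 1.0e-04). In pure oxygen none of the 3 was above 157, while probe sets with a mean under 112 were not tested, so the sizes of these changes, and of their differences from spontaneous breathing given below, depend on the offset of 40. With another offset Ucp1 changed by -7.20 to -5.78 and Fabp4 by -5.92 to -4.73. Cfd, adipsin, fell by 2.48 on the log2 scale, and the stearoyl-CoA desaturase Scd fell from 6645 and 6571 to 1335 and 1387 (log2 change -2.25 ± 0.11, adjusted p = 1.4e-05). Of 15 tested fat genes 7 fell and 1 rose, with a median of -0.91, and in all 7 the room-air samples were the highest of the series. Without the filter on dim probe sets 6 of 20 fell and 2 rose, with a median of -0.44. Over 5 of 6 brown fat markers on the array the summed intensity was 16105 and 16078 with room air and 5081 and 5094 with pure oxygen. It was 5994 to 6717 in the spontaneously breathing groups, and the lipid droplet gene Plin1 was at or below 0 in all ventilated samples. Most of the pure-oxygen sum came from the marker Lpl, lipoprotein lipase, which was tested and not called.

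Muscle genes were lower as well. Tnnc2, troponin C of fast muscle, read 534 and 469 with room air and 23.8 and 58.5 with pure oxygen (log2 change -2.77 ± 0.24, adjusted p = 2.0e-04), a size that also depends on the offset (-3.47 to -2.28 with another). Acta1, skeletal actin, fell from 3405 and 3495 to 649.7 and 753 (log2 change -2.24 ± 0.13, adjusted p = 3.0e-05) and the muscle creatine kinase Ckm from 1537 and 1854 to 476 and 533 (log2 change -1.67 ± 0.16, adjusted p = 3.3e-04). Of 24 tested skeletal muscle genes 11 fell and 1 rose, and without room-air letter a 7 fell. In 9 of the 11 the pure-oxygen samples were the lowest of the series, and in 0 were the room-air samples the highest. The median of this list was -0.45. Without the filter on dim probe sets 10 of 33 fell and 0 rose, with a median of -0.24. The 9 skeletal muscle markers summed to 7759 and 7977 with room air, 2306 and 2401 with pure oxygen, 5442 to 5522 in spontaneous 21% and 27184 to 27818 in spontaneous 100%. Heart markers summed to 13540.3 and 13667 with room air and to 10787 and 10823 with pure oxygen.

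**Figure D4:**
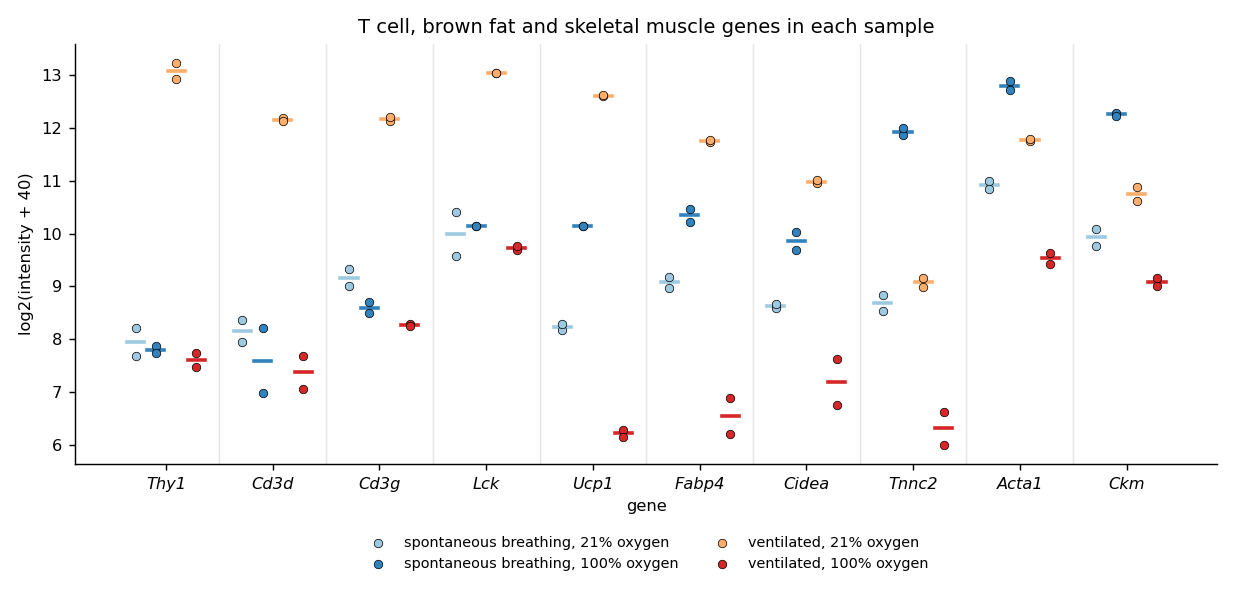
Levels of T cell, brown fat and skeletal muscle genes on the log2(intensity + 40) scale, 1 point per sample and a bar at the mean of each group's 2 samples. The ventilated room-air points of Thy1, Cd3d, Cd3g, Lck, Ucp1, Fabp4 and Cidea lie above all other samples, whereas Tnnc2, Acta1 and Ckm are highest in spontaneous 100% and lowest in ventilated pure oxygen.

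Genes of mitochondrial energy supply were lower with pure oxygen. Of 32 tested subunits of oxidative phosphorylation 23 fell and 0 rose, with a median of -0.66, or -0.61 after quantile normalization. The complex I subunit Ndufa9 read 1476 and 1456 with room air and 559 and 690.2 with pure oxygen (log2 change -1.19 ± 0.17, adjusted p = 0.0019), and Ndufs6 fell by 0.97 on the log2 scale. The ATP synthase subunits Atp5po (log2 change -1.16 ± 0.15, adjusted p = 0.0014) and Atp5f1c (log2 change -0.89 ± 0.13, adjusted p = 0.0023) fell. Cox8b, the muscle and brown fat form of a cytochrome oxidase subunit, fell more, from 1409 and 1534 to 285 and 278 (log2 change -2.23 ± 0.15, adjusted p = 8.1e-05). In 14 of the 23 the room-air samples were the highest of the series and in 10 the pure-oxygen samples were the lowest. These shares lie near those of all 435 lower genes, where the counts were 236 and 231. Of 32 genes of the citric acid cycle and fatty acid oxidation 18 fell and 0 rose, and in 15 of these the room-air samples were the highest. Acadl, which starts oxidation of long fatty acids, went from 2937 and 2981 to 850.5 and 1121 (log2 change -1.56 ± 0.18, adjusted p = 7.8e-04), Decr1 from 1847 and 1675 to 466 and 487 (log2 change -1.80 ± 0.13, adjusted p = 1.1e-04) and the electron carrier Etfa from 1579 and 1649 to 776 and 724 (log2 change -1.07 ± 0.15, adjusted p = 0.0020). Pdk1, which blocks pyruvate entry, fell from 329 and 368 to 75.7 and 80.2 (log2 change -1.72 ± 0.25, adjusted p = 0.0021). It passed the limit for testing only through its room-air values, so its call is not counted as support.

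The room-air samples with these high mitochondrial levels are those with the high fat markers given above, and the part of one in the other was not tested. Without pure-oxygen letter a the counts of lower genes were 14 for oxidative phosphorylation and 10 for the citric acid cycle and fatty acid oxidation. Without room-air letter b they were 15 and 7, and without room-air letter a the second was 11. On the arrays without the lot line they were 12 and 13.

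Cell cycle and interferon-induced genes were lower in part. Of 22 tested cell cycle genes 8 fell and 2 rose, and in all 8 the room-air samples were the highest of the series, as they were for the summed T cell markers, whose part in these falls was not tested. Ccnb1, the mitotic cyclin, went from 418 and 379 to 125 and 93.4 (log2 change -1.56 ± 0.24, adjusted p = 0.0025), and the replication clamp Pcna from 4321 and 3979 to 2496 and 2458 (log2 change -0.73 ± 0.12, adjusted p = 0.0029). The mitotic kinase Cdk1 fell from 663 and 752 to 381 and 405 (log2 change -0.79 ± 0.16, adjusted p = 0.0080), a call lost without room-air letter b. Of 20 genes of the interferon response and antigen processing 12 fell and 2 rose. Mx2, an antiviral GTPase, fell from 1188 and 1161 to 246 and 314 (log2 change -1.93 ± 0.17, adjusted p = 2.2e-04) and Rsad2, viperin, from 1509 and 1587 to 628 and 671 (log2 change -1.21 ± 0.15, adjusted p = 0.0011). The immunoproteasome subunits Psmb8 and Psmb9 fell by 1.01 and 0.81 and the peptide transporter Tap2 by 0.73. With any 1 ventilated sample left out, 4 to 6 cell cycle genes and 5 to 7 interferon-induced genes were lower. Reg3g, an antimicrobial lectin, was also lower (807 and 817 with room air, 147 and 121 with pure oxygen, log2 change -2.29 ± 0.19, adjusted p = 2.0e-04).

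Cytosolic ribosomal proteins gave the most frequent falls, 30 of 37 tested with 3 rises, but this list depended on the scaling. Rplp0 read 10520.1 and 12814 with room air and 3288 and 4921 with pure oxygen (log2 change -1.54 ± 0.26, adjusted p = 0.0037), Rpl6 fell by 1.07 and Rpsa by 0.82. In 27 of the 30 the pure-oxygen samples were the lowest of the series. After quantile normalization 14 fell and 3 rose, and the median went from -0.68 to -0.15. The changes of Rplp0, Rpl6 and Rpsa were then -1.42, -0.71 and -0.24, and none of the 3 was called on the arrays without the lot line. Without pure-oxygen letter a 4 fell, without room-air letter a 16 and without room-air letter b 6, and 1 fell on the arrays without the lot line. The 3 that rose, Rpl5, Rpl17 and Rpl30, singled out after their values were seen, changed by 0.98, 1.52 and 1.23, and none of them was called on the arrays without the lot line. Rpl5 also lost its call without pure-oxygen letter a or room-air letter a. Tuba1b, a tubulin as bright as these, fell by 0.74 and was not called after quantile normalization (-0.12). The haemoglobin gene Hbb fell from 8685 and 12383 to 2567 and 4907 (log2 change -1.56 ± 0.33, adjusted p = 0.0093) and lost its call without pure-oxygen letter a or room-air letter b.

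Of 9 tested clock genes 3 rose (33.3%) and 1 fell (11.1%), against 19.9% and 13.7% of all genes, so few members that the list is not read as a group. Bmal1, the activator of the clock, rose from 105 and 112 to 342 and 353 (log2 change 1.39 ± 0.28, adjusted p = 0.0078), and the repressor Per2 from 195 and 143 to 449.7 and 384 (log2 change 1.14 ± 0.21, adjusted p = 0.0049). Bmal1 passed the limit for testing only through its pure-oxygen values, so its call is not counted as support. Dbp, a clock output factor, fell from 1212 and 1392 to 484 and 663 (log2 change -1.14 ± 0.30, adjusted p = 0.021), a call lost without pure-oxygen letter a or either room-air sample. The time of day of sampling is not given in the sources used here. Cited2, an inhibitor of hypoxia-inducible factor, rose from 797 and 587 to 2511 and 2198 (log2 change 1.72 ± 0.24, adjusted p = 0.0017).

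The same oxygen step was made in spontaneously breathing rats, in samples that share no array with the ventilated ones. The difference between both changes was called for 1439 of 5244 probe sets (27.4%), 888 higher under ventilation (16.9%) and 551 lower (10.5%). Of the 1841 probe sets called under ventilation, 1023 also differed between the ways of breathing. Where both changes were called, they had the same sign in 161 probe sets and opposite signs in 272, and 192 of the latter were higher under ventilation and lower in spontaneous breathing. Of the 3181 genes, 523 differed upward (16.4%) and 337 downward (10.6%), the shares against which the lists below are read. With the lot line as a block 151 differences were called. Both spontaneous 21% arrays carry the line and no spontaneous 100% array does, so in these groups the lot line and the oxygen level cannot be told apart. The line lies only in groups that enter this difference with a plus sign, spontaneous 21% and ventilated pure oxygen. Among their arrays only s2A lacks it, so the difference and the lot line can hardly be told apart.

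**Figure D5:**
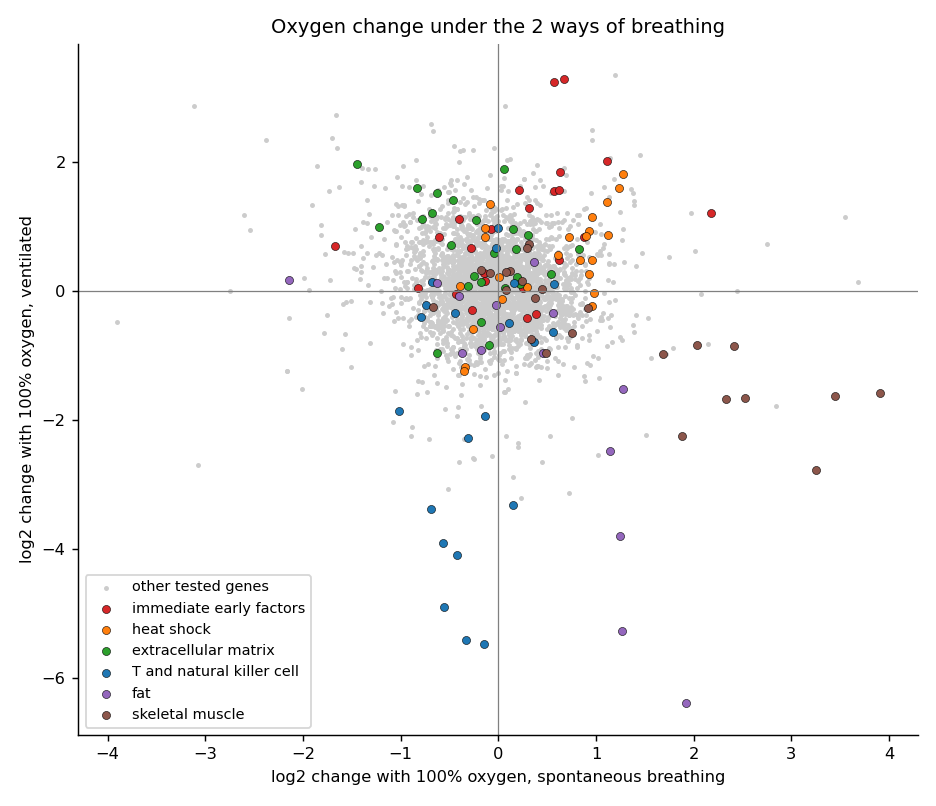
Log2 change with 100% oxygen under spontaneous breathing (horizontal) against that under ventilation (vertical), 1 point per tested gene, with 6 gene lists in colour. T cell genes such as Thy1 lie low near the middle, skeletal muscle genes such as Tnnc2 and fat genes such as Ucp1 (1.92 and -6.39) lie to the lower right, and heat shock genes such as Fkbp4 lie to the upper right.

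Early genes rose further with oxygen under ventilation. For Nr4a1 the spontaneously breathing samples read 466 and 751 at 21% and 1072 and 756 at 100% oxygen, and the difference of the changes was 2.67 ± 0.34 (adjusted p = 0.0014). Egr1 read 997 and 1138 at 21% and 1691 and 1640.5 at 100% there (difference 1.23 ± 0.18, adjusted p = 0.0024). For Jun and Zfp36 the differences were 1.36 ± 0.22 and 1.55 ± 0.18. Of the 24 immediate early factors 12 differed upward and 2 downward. Hmox1 rose under both, to 4392 and 3554 from 1332 and 1517 in spontaneous breathing, with a difference of 0.67 ± 0.20 (adjusted p = 0.042).

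The chaperones Stip1, Fkbp4, Hspd1 and Dnajb1 rose with oxygen under both ways of breathing. Stip1 changed by 1.11 in spontaneous breathing (1626 and 1649 to 3517 and 3625), with a difference of 0.27 ± 0.15 (adjusted p = 0.21). For Fkbp4, Hspd1 and Dnajb1 the differences were 0.38 ± 0.20, -0.01 ± 0.17 and -0.03 ± 0.17, none of them called, which does not show that the changes were equal. Of 24 heat shock list genes 3 differed upward (12.5%) and 2 downward (8.33%), near the shares of all genes. Cyp1a1 fell under both, from 695 and 597 to 144 and 117 in spontaneous breathing (difference 0.49 ± 0.29, adjusted p = 0.24). Ccl5 fell from 3351 and 3203 to 1793 and 1695 there, with a difference of -0.09 ± 0.22 (adjusted p = 0.78).

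Lamb2, Fn1, Ace and Scnn1a fell with oxygen in spontaneous breathing and rose under ventilation. Lamb2 went in spontaneous breathing from 2207 and 2349.7 to 892 and 736 (difference 3.42 ± 0.19, adjusted p = 4.2e-05). Fn1 read 6409.6 and 7379 and then 4020.5 and 3701 (difference 2.43 ± 0.17), and Ace 5512 and 5215 and then 2126 and 2469.9 (difference 2.20 ± 0.16). The ventilated room-air and the spontaneous 100% samples were thus the low ones for these genes. Scnn1a (2.53 ± 0.16), Tgfb1 (2.31 ± 0.35), Myh11 (3.82 ± 0.36) and Slit3 (3.87 ± 0.34) differed in the same direction. The largest upward differences among the named genes were those of Aebp1 (4.73), Iqsec1 (4.39) and Sptan1 (4.08). Of 25 matrix genes 12 differed upward and 0 downward, and of 12 endothelial genes 9 and 0.

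Falling blocks differed in their spontaneous side. T cell genes were low in both spontaneous groups, with Thy1 at 258 and 166 with 21% and 195 and 172 with 100% oxygen (difference -5.32 ± 0.32, adjusted p = 4.9e-05) and Lck at 1316 and 719 with 21% and 1086 and 1090.2 with 100% (difference -3.47 ± 0.33). For Cd3g and Cd247 the differences were -3.34 and -2.68. The named fat genes rose with oxygen in spontaneous breathing, Ucp1 from 248 and 271 to 1098 and 1087 (difference -8.31 ± 0.21, adjusted p = 3.1e-07), and the differences of Fabp4, Cidea and Scd were -6.53, -5.03 and -2.77. The named muscle genes rose there, Tnnc2 from 329.9 and 415 to 3674 and 4065 (difference -6.02 ± 0.33, adjusted p = 4.2e-05), with -4.12 for Acta1 and -4.00 for Ckm. Of 32 oxidative phosphorylation genes 25 differed downward and 0 upward, Ndufa9 by -1.69 ± 0.24, and Acadl differed by -1.62 ± 0.25. Ccl2 rose in spontaneous breathing, from 334 and 396 to 1514 and 1809.7, and its difference was -2.11 ± 0.22 (adjusted p = 6.6e-04). Il6 was listed below 0 in both spontaneous 21% samples and read 485 and 461 in spontaneous 100%.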

How the data were processed

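The deposited values are linear array intensities that the authors scaled to a common trimmed mean, as their levels show; the scanner software and its settings are not given in the sources used here. Values at or below 0, 18.42% to 20.01% of each array, were set to 0, 40 was added and log2 was taken. The 59 control probe sets were dropped and the dimmest 40% were not tested. In R 4.3.3, limma 3.58.1 gave a group-means fit to all 8 samples with a mean-variance trend and Benjamini-Hochberg adjusted p-values, after a test on simulated data. Both arrays of pure-oxygen letter b were averaged after the log2. Figures were drawn with Python 3.11.15 and matplotlib 3.10.9. Of 8740 probe sets 7006 carried 1 gene symbol, 308 several and 1426 none, by GEO's platform annotation, and 6985 matched a current RefSeq gene.

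Named genes came from 284 eligible ones, namely the 20 largest changes each way, 6 per list by smallest p, and 20 always eligible genes. Those marked as singled out were chosen after their values were seen. The comparison, the members and the gene lists were chosen with earlier results of these data known. Alternatives were quantile and loess scaling, the offset, the filter on dim probe sets, the lot line, a replicate block, either array of letter b, no variance trend, a threshold of 0.1, and each sample left out.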

Additional observations from a re-analysis of the deposited data

Results flagged for a closer look

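The change with pure oxygen was called different between ventilated and spontaneously breathing lungs, by limma's test of the difference of both changes, in 1439 of 5244 tested probe sets. With the lot line as a block 151 were called. The line stands only in arrays of spontaneous 21% and ventilated pure oxygen, the groups that enter the difference with a plus sign. The differences below can therefore hardly be told apart from the lot line. Each value is the change under ventilation minus the change under spontaneous breathing on the log2 scale, with 2 samples in each of the 4 groups, and each has an adjusted p under 0.05.

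Among early response genes the difference was 2.67 for Nr4a1, 1.23 for Egr1, 1.36 for Jun and 1.55 for Zfp36, and among stress genes 0.67 for Hmox1. It was 2.31 for Tgfb1 and -2.11 for Ccl2, which rose in spontaneous breathing and did not pass under ventilation.

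Genes of matrix, vessel wall, transport and structure differed upward. The values were 2.20 for Ace, 2.43 for Fn1, 3.42 for Lamb2, 2.53 for Scnn1a, 4.08 for Sptan1, 4.39 for Iqsec1, 4.73 for Aebp1, 3.87 for Slit3 and 3.82 for Myh11.

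The T cell genes Thy1, Cd3g, Cd247 and Lck differed by -5.32, -3.34, -2.68 and -3.47. The fat genes Ucp1, Fabp4, Cidea and Scd differed by -8.31, -6.53, -5.03 and -2.77. The muscle genes Tnnc2, Acta1 and Ckm differed by -6.02, -4.12 and -4.00, and the mitochondrial genes Ndufa9 and Acadl by -1.69 and -1.62.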

How the results depend on the processing

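Of the 126 called genes named, 98 kept their call and direction in all 22 alternatives in which they were tested, 17 lost the call in 1 to 3 and 11 in more, and Scgb1a1 reversed, to 0.18 after quantile normalization. The counts of 1085 higher and 756 lower probe sets fell most where arrays were left out or the lot line was used. They were 553 and 345 with the lot line as a block, and 560 and 373 on the arrays without it. Leaving out 1 sample at a time gave 591 to 1112 higher and 320 to 792 lower, and 980 to 1328 differences between the ways of breathing, where 1439 were called with all samples. The lot line as a block gave 151. With letters a and b as a replicate block the counts were 965, 696 and 1265. Deviations of samples with the same letter correlated between -0.128 and 0.0657 across groups. No label says whether the letters pair samples, and such correlations cannot decide it. Quantile normalization turned the share of called probe sets that were higher from 58.9% to 48.6%, and loess to 48.4%. Beside these, no alternative moved the 3 counts by over 1.5 times. The number of arrays limits the precision, since 2 samples in a group leave 4 residual degrees of freedom over the series.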
